A study of Danio rerio with 12 samples.

Results

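The probes described here measured the mRNAs of 108 zebrafish genes for neurotransmitter receptors and ion channels. They were chosen by gene symbol among the 10914 named genes of an Agilent zebrafish array, as every symbol that starts with gria, grik, grin and a digit, gabr, glra, glrb, chrn, htr, kcn, cacn, or scn and a digit. The rule used no measured value, except that a gene with more than 1 probe is given by its brightest probe on average across the 12 arrays, which concerned 23 of the 108 genes. The symbols gave 7 subunits of AMPA receptors, 3 of NMDA receptors, 7 of GABA-A receptors, 4 of glycine receptors and 10 of nicotinic acetylcholine receptors. They further gave 7 serotonin receptors, 40 potassium channel genes, 16 calcium channel genes and 11 sodium channel genes, and no kainate receptor gene. The letters htr also brought in htra1a, htra1b and htra3a, which encode HtrA serine peptidases and no receptor. Some other members encode auxiliary proteins rather than a receptor or a channel pore, such as cacng2a, cacng3b, kcnip3a and kcnip3b.

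RNA came from pools of 25 whole zebrafish embryos, homogenized without dissection, that had been injected at the 1-cell stage and frozen at 24 or 36 hours post fertilization (hpf). MO embryos had received 4.4 ng in 1 nL of a morpholino, an antisense oligonucleotide that blocks translation, here of the glucocorticoid receptor (GR). MP embryos had received the same amount of a mispair control, described as the morpholino with some bases changed. There were 3 arrays for MO and 3 for MP embryos at each time, from breeding events on separate days, and the comparison asked which mRNAs differ when the receptor is knocked down.

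The morpholino is shown because every MO value rests on it, and the capitals are the complement of the start codon, at bases 19 to 21 of 25.
GR morpholino: ctccagtcctccttgatcCATtttg
The sample labels print the same sequence for the mispair control, although they describe it as changed, and the study's methods print another sequence of a different length for it, so its sequence is not settled here. The morpholino acts on translation, so the mRNA of the receptor is no check of the labels.

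Neurons signal across synapses when a transmitter opens a receptor channel on the next cell. Glutamate (AMPA and NMDA receptors) and acetylcholine (nicotinic receptors) excite, whereas GABA and glycine mostly inhibit, and at the neuromuscular synapse a nicotinic receptor starts muscle contraction. Voltage-gated sodium and calcium channels carry the depolarization, and potassium channels end it or set the resting potential. In zebrafish these genes come into use as the first motor and sensory circuits form, from the first spontaneous coiling of the embryo to its response to touch.

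Each value below is a log2 normalized expression, which is the log2 of the probe's background-corrected intensity over the array's median across 19114 bright probes. Values are given for replicates 1, 2 and 3 in that order, and levels of different genes are not set against each other, since probes differ in brightness. A change is MO minus MP on the log2 scale, so a negative change is a lower level in MO embryos. The study's own fold changes run the other way. Its networks mark gria2, grin1b, cacng2, chrna4, kcnd3, kcnip3, cacna1s, cacna2d1a and scn4ab as upregulated by GR knockdown at 36 hpf. They mark scn4aa as downregulated. Here grin1b, chrna4b and scn4ab were lower in MO embryos at 36 hpf without passing the test described below. The groups of cacna2d1a overlapped and scn4aa was too dim to test. The study's qPCR of other genes had the same direction as its own array values. The reason for the opposite directions was not tested. For a member to be tested, every array of 1 or both groups compared had to show its probe well above background. Where a probe passed only through the group with the higher level, its bound and adjusted p are descriptions, since the filter used the same values. A member counts as called where limma gave an adjusted p under 0.05, with the Benjamini-Hochberg method applied across all named genes tested. A whole-embryo pool cannot tell fewer cells of a type from less mRNA per cell. The arrays of 24 hpf and of 36 hpf were on separate slides, so time and slide cannot be told apart, whereas each slide held 1 MO and 1 MP array.

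The median intensity per array was 129.95 to 141.76 for MO and 133.05 to 171.73 for MP embryos at 24 hpf, and 35.79 to 106.05 for MO and 84.48 to 172.09 for MP embryos at 36 hpf. Replicate 2 of MO at 36 hpf was the dimmest, at 35.79, and results at 36 hpf are therefore also given without it. No member's call between MO and MP at 36 hpf held in every fit that left out 1 array. The share of probes well above background was 80.64 to 82.49% for MO and 80.37 to 82.26% for MP at 24 hpf, and 65.94 to 70.67% for MO and 72.82 to 80.44% for MP at 36 hpf. Scaling to the positive control spots, which are dim, moved the median change of all genes to -1.15 at 36 hpf, against 0.03 in the scaling used here, so each change is relative to the bright probes. Of the 108 members, 56 were well above background on all 12 arrays and 7 on none, and 19 could be tested at neither time.

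At 24 hpf most changes of receptor and channel mRNAs were decreases. Of 86 members tested, 49 were called, 37 of them lower and 12 higher in MO embryos. These were 57.0% of the members tested, and over all named genes tested 48.3% were called, 24.0% lower and 24.3% higher. The counts by family below are read against these shares. At 36 hpf they are read against 6.38% of all genes called, 4.45% lower and 1.93% higher. The median change was -0.51 over the tested members and 0.01 over all genes, with fitted member changes from -2.67 to 3.06, both ends from probes not well above background on 2 or more arrays of 1 group. The values of the MO and MP arrays did not overlap for 14 members that were higher and 43 that were lower, against 59.8% of all genes, 29.7% higher and 30.0% lower. All 49 calls had the same sign on each of the 3 slides, which follows by itself wherever the groups do not overlap. Where the filter was tightened to probes well above background in both groups, 75 members were tested and 43 were called, 34 lower and 9 higher, against 48.3% of all genes. Under normexp background correction the member median was -0.07.

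**Figure D1:**
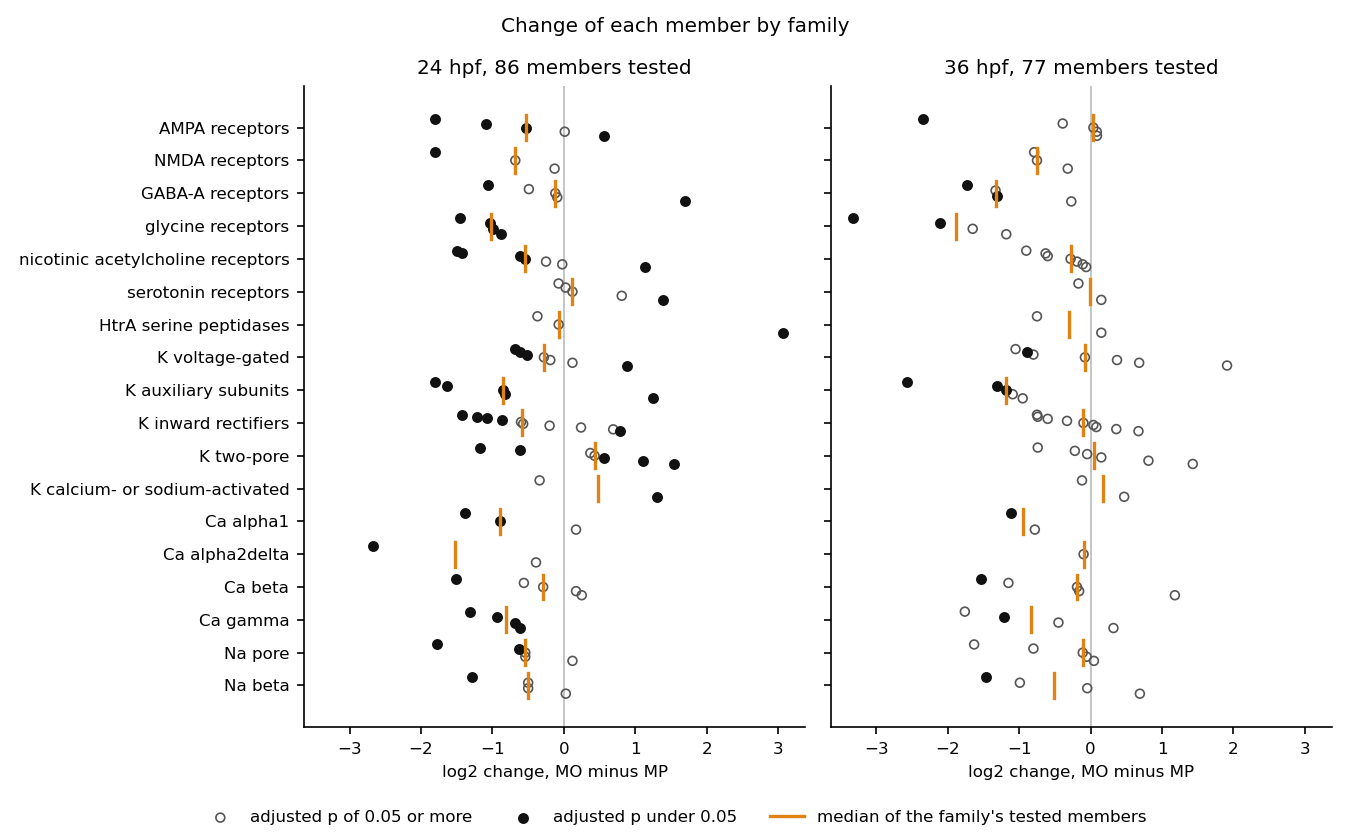
Log2 change, MO minus MP, of each tested member by family, at 24 hpf on the left (86 members) and at 36 hpf on the right (77 members), with filled points at an adjusted p under 0.05 and orange bars at the family medians. Glycine receptors and potassium channel auxiliary subunits had medians below 0 at both times, -1.01 and -0.85 at 24 hpf and -1.88 and -1.19 at 36 hpf, under every scaling tried, whereas under normexp the medians of the GABA-A, calcium alpha1, calcium beta and HtrA families at 24 hpf and of most families at 36 hpf turned to above 0.

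Among AMPA receptor genes, 4 of 5 tested were called at 24 hpf, 3 lower and 1 higher. The largest decrease was in gria2b, for GluA2, the subunit that in mammals keeps calcium out of the channel. Its values were -4.59, -4.92 and -4.92 in MO embryos and -2.76, -3.18 and -3.05 in MP embryos, a log2 change of -1.81 (adjusted p = 7.6e-05, SE 0.18). No MO array reached the lowest MP array, and the change within slides ran from -2.16 to -1.41. Its values at 36 hpf were -3.38, -4.55 and -3.02 in MO embryos and -1.12, -1.22 and -1.60 in MP embryos, again without overlap, a log2 change of -2.34 (adjusted p = 0.024, SE 0.41). The paralog gria2a was -6.89, -6.38 and -6.85 in MO embryos and -5.63, -5.65 and -5.56 in MP embryos at 24 hpf, a log2 change of -1.09 (adjusted p = 0.0042, SE 0.23), with all MO arrays below all MP arrays. At 36 hpf gria2a was -6.08, -3.83 and -5.51 in MO and -5.31, -4.93 and -5.43 in MP embryos, where the dim MO replicate 2 was the highest of the 6, and the change was 0.087 (adjusted p = 0.947). Its second probe, well above background on 3 of 6 arrays at each time, changed by -1.90 at 24 hpf and -1.84 at 36 hpf. The third gene that was lower at 24 hpf was gria4b, for GluA4, by 0.53 (adjusted p = 0.042). Its call held in 1 of 6 fits that left out 1 array.

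The AMPA gene that was higher was gria1b, for GluA1, at -4.89, -4.73 and -4.89 in MO embryos and -5.55, -5.52 and -5.14 in MP embryos at 24 hpf. The groups did not overlap, with a log2 change of 0.56 (adjusted p = 0.038, SE 0.19), although its other probes, well above background on fewer arrays, changed by -0.24 and 0.16. The call of gria1b held in 1 of 6 fits that left out 1 array and in 8 of 16 other settings. At 36 hpf gria1b was -5.46, -4.93 and -5.25 in MO and -5.35, -5.15 and -5.26 in MP embryos, and the groups overlapped. Of NMDA receptor genes, grin1a encodes the subunit that every NMDA receptor needs. It was -3.17, -3.39 and -3.41 in MO embryos and -1.71, -1.60 and -1.22 in MP embryos at 24 hpf, a log2 change of -1.81 (adjusted p = 4.4e-05, SE 0.16), or 3.5-fold lower. By 36 hpf it was -0.99, -0.12 and -0.77 in MO and 0.08, 0.26 and 0.01 in MP embryos, with no overlap but no call (-0.75, adjusted p = 0.154). Without the dim array it was called, lower in MO embryos (adjusted p = 0.015). The paralog grin1b changed by -0.13 at 24 hpf and -0.79 at 36 hpf, and neither passed the test (adjusted p = 0.646 and 0.208). Its 3 other probes, well above background on fewer arrays, changed by -2.02 to 0.072 at 24 hpf and by -3.07 to -1.16 at 36 hpf, so the probes of grin1b disagree.

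All 4 glycine receptor subunits measured were called at 24 hpf, and all were lower in MO embryos. glra1 encodes an alpha subunit that binds glycine in the spinal cord and brainstem of mammals. At 24 hpf it was -7.62, -8.15 and -6.76 in MO embryos, where the probe was well above background on 1 of 3 arrays, and -5.71, -6.49 and -5.99 in MP embryos, a log2 change of -1.45 (adjusted p = 0.014, SE 0.39). The 36 hpf values were -6.72, -7.21 and -7.64 in MO embryos, on no array well above background, and -3.79, -3.66 and -4.16 in MP embryos, on all 3. The decrease at 36 hpf was therefore a bound, at least 5.42-fold against the lowest level well above background (adjusted p = 0.0057). The probe passed the filter at 36 hpf through the MP group only. Under normexp, which adds an offset to every intensity, the change at 36 hpf was -0.40 and not called.

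The other 3 glycine receptor genes followed the same order of groups. At 24 hpf glra4a fell by 1.04 (adjusted p = 0.003), glrbb by 0.99 (adjusted p = 0.015) and glra3 by 0.88 (adjusted p = 0.0095) in MO relative to MP embryos. glrbb encodes the beta subunit that holds the receptor at the synapse and is the gene mutated in the bandoneon fish, which lacks alternating swimming contractions. At 36 hpf glra4a was -4.54, -4.22 and -4.75 in MO embryos and -2.39, -3.04 and -1.74 in MP embryos, with no overlap and a log2 change of -2.11 (adjusted p = 0.024, SE 0.38). At 36 hpf glra3 and glrbb also had all MO arrays below all MP arrays and did not pass the test, with changes of -1.18 and -1.65. Without the dim array glrbb was called, at -1.29 (adjusted p = 0.035).

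GABA-A receptor genes did not all go the same way. gabra4 encodes an alpha subunit. At 24 hpf it was -4.92, -5.25 and -5.13 in MO and -5.35, -4.74 and -4.94 in MP embryos, where the groups overlapped, with a change of -0.093 (adjusted p = 0.744). Levels at 36 hpf were -5.09, -4.70 and -4.82 in MO embryos and -3.72, -3.42 and -3.54 in MP embryos, a log2 change of -1.31 (adjusted p = 0.037, SE 0.28), with every MO array below every MP array. The beta subunit gene gabrb2a was -5.70, -6.44 and -5.88 in MO and -4.91, -5.04 and -4.89 in MP embryos at 24 hpf, a log2 change of -1.06 (adjusted p = 0.0056, SE 0.23), but its second probe changed by 0.74, so its direction at 24 hpf depends on the probe.

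The GABA-A gene called higher at 24 hpf was gabra6a, for an alpha subunit that mammals use in the cerebellum. At 24 hpf it was -4.42, -6.15 and -5.13 in MO and -6.42, -7.54 and -6.81 in MP embryos, a log2 change of 1.69 (adjusted p = 0.014, SE 0.45), with wide spread within each group and within slides (0.27 to 3.12). At 36 hpf it was -4.17, -7.35 and -3.69 in MO and -6.18, -5.94 and -5.25 in MP embryos and was not tested with all arrays. It passed the filter only without the dim MO replicate 2, the lowest of the 6 values, and through the MO group. The change of 1.86 found then is therefore no support for a rise at 36 hpf. Of the rho subunits, which form GABA receptors of the retina, gabrr1 and gabrr2a were not called at 24 hpf, with changes of -0.12 and -0.49 (adjusted p = 0.674 and 0.059). gabrr3a was well above background on no array. Over GABA-A and glycine receptor genes together, 5 were lower and 1 higher of 9 tested at 24 hpf, and 4 were lower of 8 tested at 36 hpf.

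Nicotinic acetylcholine receptor genes had 5 called of 7 tested at 24 hpf, 4 lower and 1 higher, and 0 of 7 at 36 hpf (limma, with 1 at an unadjusted p under 0.05). The methods' t-test also called none of them at 36 hpf, but it called only 2 of 9889 genes, so it cannot show a lack of change. Of the neuronal subunits, chrna2a had the largest decrease at 24 hpf. It was -4.89, -4.65 and -4.66 in MO embryos and -3.17, -3.05 and -3.49 in MP embryos, a log2 change of -1.50 (adjusted p = 0.00018, SE 0.17), with no overlap. Its values at 36 hpf were -3.73, -3.98 and -3.02 in MO and -2.82, -3.09 and -2.94 in MP embryos, and the groups overlapped through MO replicate 3. chrna11 fell by 1.42 at 24 hpf (adjusted p = 8.2e-05). chrna4b, an alpha subunit of neuronal receptors, went the other way at 24 hpf, at -3.95, -3.24 and -2.47 in MO and -4.36, -4.35 and -4.36 in MP embryos, a log2 change of 1.13 (adjusted p = 0.017, SE 0.32). By 36 hpf it was -4.03, -4.32 and -4.91 in MO and -3.35, -3.51 and -3.71 in MP embryos, now with all MO arrays lower, and a change of -0.90 did not pass the test (adjusted p = 0.158). The difference between its changes at these times was -2.03 (adjusted p = 0.063). The call at 24 hpf was lost without MO replicate 2. chrna5 and chrna7a, a subunit that forms channels on its own, were not called at either time.

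**Figure D2:**
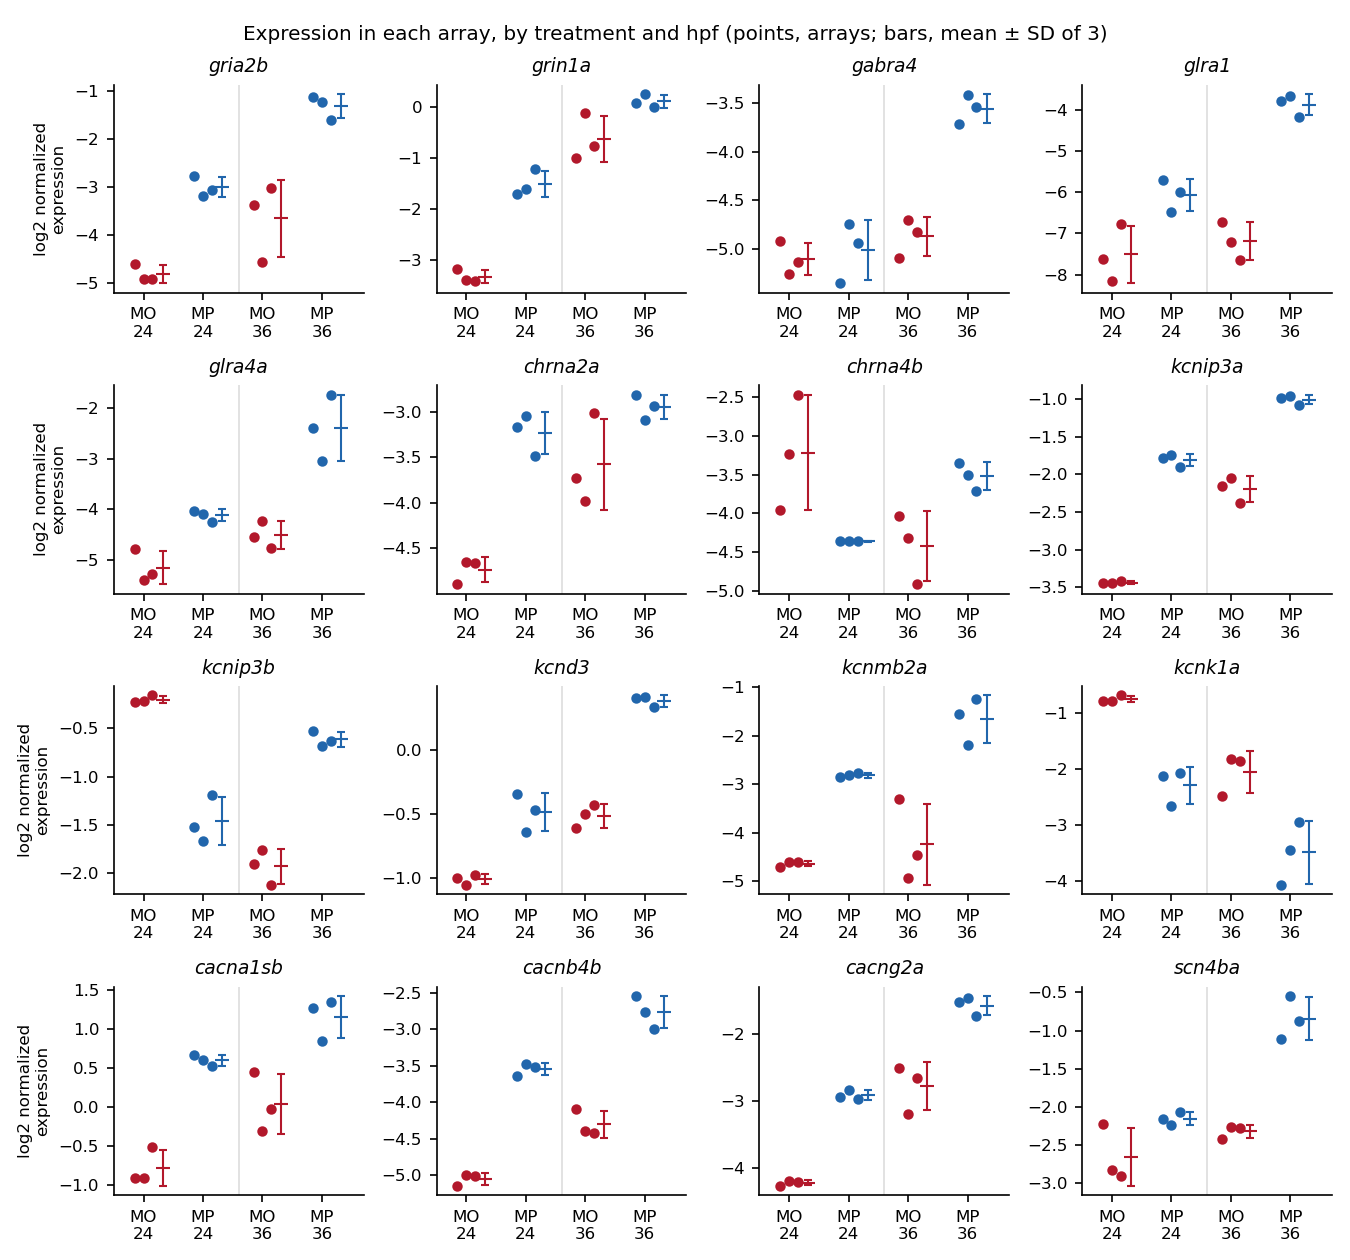
Log2 normalized expression of 16 members in each of the 12 arrays, MO (red) left of MP (blue) at 24 and then 36 hpf, with points for arrays and bars for the mean ± SD of 3. The 16 were chosen with their changes known, so their count is no share of the members. In 14 panels all MO points at 36 hpf lie below all MP points at 36 hpf, with chrna2a and kcnk1a as the exceptions. Over the 77 members tested at 36 hpf this held for 29, against 15.1% of all genes. The order changes between the times for kcnip3b and chrna4b, with MO points above the MP points at 24 hpf and below them at 36 hpf.

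Of 11 members listed for the excitation of skeletal muscle, among them scn4ba and scn4bb, which in mammals serve neurons too, 10 were tested at 24 hpf and 6 were called, all lower in MO embryos. The receptor of the neuromuscular synapse was represented by its alpha subunit chrna1 and its delta subunit chrnd. chrna1 was 1.30, 1.23 and 1.70 in MO and 2.13, 2.03 and 1.90 in MP embryos at 24 hpf, a log2 change of -0.61 (adjusted p = 0.0053, SE 0.13). chrnd was 0.39, 0.17 and 0.67 in MO and 1.06, 1.00 and 0.81 in MP embryos, a log2 change of -0.55 (adjusted p = 0.01, SE 0.14). Neither gene had overlapping groups at 24 hpf, and both did at 36 hpf. chrna1 was then 1.74, 1.26 and 1.39 in MO and 1.96, 1.20 and 2.07 in MP embryos, and chrnd 0.55, 0.37 and 0.21 in MO and 0.87, -0.10 and 0.70 in MP embryos. Their changes at 36 hpf were -0.28 and -0.11 (adjusted p = 0.595 and 0.862).

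cacna1sb encodes the dihydropyridine receptor, the voltage sensor that couples excitation of the muscle membrane to contraction. It was -0.90, -0.91 and -0.51 in MO and 0.67, 0.61 and 0.53 in MP embryos at 24 hpf, a log2 change of -1.38 (adjusted p = 5.8e-05, SE 0.13), and 0.46, -0.30 and -0.02 in MO and 1.27, 0.85 and 1.35 in MP embryos at 36 hpf, a log2 change of -1.11 (adjusted p = 0.045, SE 0.26). The groups were apart at both times, and the adjusted p at 36 hpf was close to the threshold. A pair of gamma subunits of this channel were lower at 24 hpf. cacng1a was 1.35, 1.45 and 1.85 in MO and 2.37, 2.18 and 2.14 in MP embryos, a log2 change of -0.68 (adjusted p = 0.0036, SE 0.14), and cacng6a was -2.56, -2.62 and -2.57 in MO and -2.10, -1.88 and -1.91 in MP embryos, a log2 change of -0.62 (adjusted p = 0.0027, SE 0.12). At 36 hpf neither was called. cacng1a was then 2.30, 1.64 and 2.15 in MO and 1.59, 1.54 and 1.99 in MP embryos, with overlap, and cacng6a -2.06, -2.28 and -2.50 in MO and -1.91, -1.95 and -1.63 in MP embryos.

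The beta subunit gene cacnb1 and the alpha2delta gene cacna2d1a of the same channel were not called, and their groups overlapped at both times. cacnb1 was -4.64, -4.29 and -4.50 in MO and -4.40, -5.19 and -4.34 in MP embryos at 24 hpf and -5.30, -4.56 and -4.45 in MO and -4.88, -4.51 and -4.35 in MP embryos at 36 hpf. cacna2d1a was -3.02, -2.72 and -2.71 in MO and -2.08, -3.05 and -2.14 in MP embryos at 24 hpf and -2.32, -1.15 and -1.96 in MO and -2.21, -1.23 and -1.69 in MP embryos at 36 hpf. Their changes at 24 hpf were 0.17 and -0.39 (adjusted p = 0.608 and 0.225). At 36 hpf the probe used for cacna2d1a changed by -0.098. The second probe of cacna2d1a, well above background on all 12 arrays, changed by -0.28 at 24 hpf and -0.82 at 36 hpf. The muscle sodium channel gene scn4ab was -7.44, -7.03 and -6.36 in MO and -5.04, -5.33 and -5.15 in MP embryos at 24 hpf, a log2 change of -1.77 (adjusted p = 0.0013, SE 0.29), with all MO arrays lower. The 36 hpf values were -6.41, -7.61 and -7.66 in MO embryos, on no array well above background, and -6.05, -5.34 and -5.40 in MP embryos, at least 1.55-fold lower with adjusted p = 0.075. Its paralog scn4aa was well above background on 1 of 12 arrays and was not tested, at -7.34, -6.47 and -7.09 in MO and -8.49, -8.03 and -7.37 in MP embryos at 24 hpf, and -8.08, -6.12 and -7.43 in MO and -8.54, -8.04 and -7.70 in MP embryos at 36 hpf.

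Serotonin receptor genes were mostly dim or not called. htr1ab, a receptor that lowers cAMP through inhibitory G proteins, was the one called, and it was higher at 24 hpf, at -2.12, -2.76 and -2.29 in MO and -3.60, -3.94 and -3.78 in MP embryos, a log2 change of 1.39 (adjusted p = 0.00044, SE 0.19). Levels at 36 hpf were -3.92, -3.41 and -4.16 in MO and -3.49, -4.64 and -3.78 in MP embryos, and the groups overlapped. htr2aa was well above background on every array and changed by -0.074 at 24 hpf and -0.17 at 36 hpf, with overlap at both times. htr5aa was on all 3 MO and 1 MP array well above background at 24 hpf, with a change of 0.81 (adjusted p = 0.052). htr1b and htr2b were each well above background on 1 of 12 arrays and were not tested.

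Of the auxiliary subunits of potassium channels, all 5 were called at 24 hpf, 4 lower and 1 higher, and 3 were called lower at 36 hpf. kcnip3a and kcnip3b are paralogs for KChIP3, a calcium-binding protein that in mammals also goes by DREAM and joins Kv4 channels. kcnip3a was -3.45, -3.45 and -3.42 in MO and -1.78, -1.74 and -1.90 in MP embryos at 24 hpf, a log2 change of -1.63 (adjusted p = 1.6e-05, SE 0.12). At 36 hpf it was -2.15, -2.05 and -2.38 in MO and -0.98, -0.96 and -1.08 in MP embryos, a log2 change of -1.19 (adjusted p = 0.027, SE 0.22). The groups were apart at both times, with within-slide changes of -1.71 to -1.52 at 24 hpf and -1.30 to -1.07 at 36 hpf.

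kcnip3b moved in opposite directions at the 2 times. At 24 hpf it was -0.23, -0.22 and -0.16 in MO and -1.52, -1.67 and -1.19 in MP embryos, with every MO array higher and a log2 change of 1.25 (adjusted p = 0.00012, SE 0.14). Its values at 36 hpf were -1.90, -1.76 and -2.12 in MO and -0.53, -0.68 and -0.63 in MP embryos, with every MO array lower and a log2 change of -1.31 (adjusted p = 0.02, SE 0.22). The change at 36 hpf minus that at 24 hpf was -2.57 (SE 0.23, adjusted p = 0.00055), which stayed past the threshold in 12 of 12 fits that left out 1 array and in 13 of 13 other settings. The pore subunit that KChIPs join, kcnd3 (Kv4.3), was between -1.05 and -0.97 in MO and -0.34, -0.64 and -0.47 in MP embryos at 24 hpf, a log2 change of -0.52 (adjusted p = 0.0044, SE 0.11), and -0.61, -0.50 and -0.43 in MO and 0.40, 0.41 and 0.33 in MP embryos at 36 hpf, a log2 change of -0.89 (adjusted p = 0.034, SE 0.18). It was lower in every MO array than in any MP array at both times. kcnip1b fell by 0.82 at 24 hpf (adjusted p = 0.00092) and changed by -0.95 at 36 hpf (adjusted p = 0.053).

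kcnmb2a encodes a beta subunit of the large-conductance channel that calcium opens. It was -4.70, -4.60 and -4.60 in MO and -2.86, -2.82 and -2.77 in MP embryos at 24 hpf, a log2 change of -1.81 (adjusted p = 1.9e-05, SE 0.14), or 3.52-fold lower. By 36 hpf it was -3.31, -4.94 and -4.45 in MO and -1.55, -2.20 and -1.24 in MP embryos, a log2 change of -2.57 (adjusted p = 0.024, SE 0.46). The groups were far apart at 24 hpf, and at 36 hpf the dim MO replicate 2 was the lowest of a wide MO group, without which the change was -2.22 (adjusted p = 0.015). kcnab1a, for a cytoplasmic beta subunit of Kv1 channels, fell by 0.85 at 24 hpf (adjusted p = 0.0037).

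Of the pore-forming voltage-gated potassium channel genes, 14 in all, 7 were tested at 24 hpf and 4 called. Beside kcnd3, kcng2 and kcng4a were lower, both for subunits that form no channel alone but modify Kv2 channels in mammals. kcng2 was -6.07, -6.02 and -6.08 in MO and -5.69, -5.11 and -5.31 in MP embryos at 24 hpf, a log2 change of -0.69 (adjusted p = 0.029, SE 0.22), and kcng4a fell by 0.62 (adjusted p = 0.0094). The call of kcng2 held in 1 of 6 fits that left out 1 array. At 36 hpf kcng2 was -5.19, -5.50 and -5.20 in MO and -5.29, -4.97 and -5.38 in MP embryos, with overlap. kcna6a, a channel of the Kv1 class, was -7.22, -6.96 and -6.21 in MO embryos and -7.70, -7.67 and -7.65 in MP embryos at 24 hpf, where it was on no MP array well above background, and it was at least 1.66-fold higher in MO embryos (adjusted p = 0.046). The probe of kcna6a passed the filter through the MO group only, and the call held in 1 of 6 fits that left out 1 array and in 4 of 15 other settings. The values of kcna6a at 36 hpf, -7.05, -7.54 and -7.48 in MO and -7.57, -5.61 and -7.12 in MP embryos, were too dim to test. kcnh6a, the channel that repolarizes the zebrafish heart, was not called, with changes of 0.12 at 24 hpf and 0.68 at 36 hpf.

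Inward rectifiers and two-pore channels set the resting potential. Of 10 inward rectifier genes tested at 24 hpf, 4 were lower and 1 higher. The largest decrease was in kcnj1a.2, 1 of 5 genes named kcnj1a for a channel of kidney and ion-transporting skin cells. It was -4.56, -4.75 and -4.85 in MO and -3.45, -3.25 and -3.21 in MP embryos at 24 hpf, a log2 change of -1.42 (adjusted p = 0.00015, SE 0.16). The 36 hpf values were -3.82, -5.60 and -4.44 in MO and -4.14, -4.64 and -2.87 in MP embryos and overlapped. These genes are close copies and their probes may share signal, so the values of single copies are uncertain. kcnj1a.5 and kcnj1a.1 were also lower, by 1.21 and 0.87 (adjusted p = 0.00018 and 0.008), whereas kcnj1a.3 and kcnj1a.6 were not called. kcnj11, the pore of the channel that ATP closes, fell by 1.07 (adjusted p = 0.0011). kcnj21 was higher, at -3.64, -3.61 and -4.50 in MO and -4.77, -4.74 and -4.58 in MP embryos, a log2 change of 0.78 (adjusted p = 0.03, SE 0.25), and at 36 hpf it was -3.62, -4.51 and -3.93 in MO and -4.06, -4.31 and -4.77 in MP embryos. Its call at 24 hpf held in 1 of 6 fits that left out 1 array.

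Of the two-pore channel genes, whose channels leak potassium at rest, 3 were higher and 2 lower of 7 tested at 24 hpf. kcnk1a, for TWIK-1, was -0.78, -0.77 and -0.68 in MO and -2.11, -2.66 and -2.07 in MP embryos at 24 hpf, a log2 change of 1.54 (adjusted p = 0.00012, SE 0.16). Levels at 36 hpf were -2.48, -1.82 and -1.85 in MO and -4.06, -3.44 and -2.94 in MP embryos, with all MO arrays still higher and a change of 1.43 that did not pass the test (adjusted p = 0.056). kcnk13a and kcnk5a were higher by 1.11 and 0.56 at 24 hpf (adjusted p = 0.0022 and 0.0093). kcnk2b, for a TREK channel that stretch opens, was -5.92, -6.25 and -5.88 in MO and -4.98, -4.86 and -4.71 in MP embryos at 24 hpf, a log2 change of -1.17 (adjusted p = 0.0015, SE 0.20), and -4.62, -5.38 and -3.85 in MO and -4.45, -4.07 and -5.18 in MP embryos at 36 hpf, where the groups overlapped. kcnk10b, for a related channel, fell by 0.62 at 24 hpf (adjusted p = 0.024), a call that held in 2 of 6 fits that left out 1 array. Of the small-conductance channels that calcium opens, kcnn1b was -3.23, -3.26 and -2.95 in MO and -4.42, -4.62 and -4.30 in MP embryos at 24 hpf, a log2 change of 1.30 (adjusted p = 0.00027, SE 0.16), and -4.57, -4.34 and -4.93 in MO and -5.13, -5.19 and -4.92 in MP embryos at 36 hpf, with overlap. Its paralog kcnn1a changed by -0.34 at 24 hpf (adjusted p = 0.135).

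Of calcium channel genes, 8 were called of 14 tested at 24 hpf and 3 of 12 at 36 hpf, and every one was lower in MO embryos. cacng2a and cacng3b carry the name of a calcium channel subunit, but in mammals their proteins, stargazin and its relative, bring AMPA receptors to the synapse. cacng2a was -4.27, -4.20 and -4.21 in MO and -2.94, -2.83 and -2.97 in MP embryos at 24 hpf, a log2 change of -1.31 (adjusted p = 9.4e-05, SE 0.13), and -2.50, -3.19 and -2.65 in MO and -1.52, -1.46 and -1.73 in MP embryos at 36 hpf, a log2 change of -1.21 (adjusted p = 0.042, SE 0.27). Every MO array was lower than every MP array at each time. cacng3b fell by 0.93 at 24 hpf (adjusted p = 0.036), and at 36 hpf it was on no MO array well above background, at least 2.13-fold lower with adjusted p = 0.054. Its call at 24 hpf held in 2 of 6 fits that left out 1 array. cacnb4b, for a beta subunit that brings the pore to the membrane, was -5.14, -5.00 and -5.01 in MO and -3.64, -3.48 and -3.51 in MP embryos at 24 hpf, a log2 change of -1.51 (adjusted p = 9e-05, SE 0.15), and -4.09, -4.39 and -4.42 in MO and -2.55, -2.76 and -2.99 in MP embryos at 36 hpf, a log2 change of -1.53 (adjusted p = 0.024, SE 0.27). The difference between these changes was -0.028 (SE 0.28, adjusted p = 0.975). The second probe of cacnb4b, well above background on 3 arrays at each time, changed by -1.50 at 24 hpf and -0.54 at 36 hpf. Its call at 36 hpf was lost with the mean of probes and with the probe of smallest change.

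cacna2d2a, for an alpha2delta subunit, was at -9.57, -7.87 and -9.63 in MO embryos, on no array well above background, and -6.92, -5.31 and -6.82 in MP embryos at 24 hpf. It was at least 2.4-fold lower in MO embryos (adjusted p = 0.0054), a description, since the probe passed the filter through the MP group only. The call held in 12 of 15 other settings and was lost under normexp, with the floor set after scaling and with the methods' t-test. At 36 hpf cacna2d2a was -8.31, -5.64 and -7.68 in MO and -7.36, -7.13 and -7.79 in MP embryos and was not tested. cacna1da, a pore subunit that hair cells of the ear use, fell by 0.90 at 24 hpf (adjusted p = 0.01), which turned sign under normexp, and at 36 hpf it changed by -0.78 where another of its probes gave 0.74. cacnb2a, a beta subunit that the heart uses, was not called, with changes of 0.25 at 24 hpf and 1.18 at 36 hpf (adjusted p = 0.57 and 0.227). cacna1c, the pore of the heart's calcium channel, was well above background on no array.

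Of sodium channel genes, 3 were called of 9 tested at 24 hpf and 1 of 9 at 36 hpf. Beside scn4ab, scn8ab, for a pore of axons, was lower at 24 hpf by 0.63 on the log2 scale (adjusted p = 0.028). The call of scn8ab held in 2 of 6 fits that left out 1 array. The beta1 subunit gene scn1ba was -0.90, -0.69 and -0.63 in MO and 0.74, 0.26 and 0.63 in MP embryos at 24 hpf, a log2 change of -1.28 (adjusted p = 0.00015, SE 0.14). At 36 hpf it was 0.55, -0.38 and 0.64 in MO and 0.99, 1.38 and 1.42 in MP embryos, apart but not called (-0.99, adjusted p = 0.102). Of the beta4 subunits, scn4ba was -2.22, -2.83 and -2.91 in MO and -2.16, -2.24 and -2.07 in MP embryos at 24 hpf, with overlap, and -2.42, -2.26 and -2.28 in MO and -1.11, -0.55 and -0.87 in MP embryos at 36 hpf, a log2 change of -1.47 (adjusted p = 0.019, SE 0.24). Its other probes changed by -1.40 and -1.25 at 24 hpf and by -2.26 and -2.63 at 36 hpf. scn4bb was -3.92, -3.81 and -4.40 in MO and -4.20, -3.97 and -4.05 in MP embryos at 24 hpf and -2.35, -1.04 and -1.25 in MO and -2.76, -1.25 and -2.71 in MP embryos at 36 hpf, with overlap at both times, and its probes disagreed at 36 hpf (0.69 and -1.70). The brain pore subunits scn1lab and scn5lab were not called at either time, with changes at 36 hpf of 0.047 and -0.11.

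At 36 hpf fewer members were called, 13 of 77 tested, and all were lower in MO embryos. Among them were gria2b, gabra4, glra1, glra4a, kcnip3a, kcnip3b, kcnmb2a, kcnd3, cacna1sb, cacnb4b, cacng2a and scn4ba. Over all named genes tested 6.38% were called, 4.45% lower and 1.93% higher. The values of the MO and MP arrays did not overlap for 3 members that were higher and 29 that were lower, against 29.3% of all genes, 14.1% higher and 15.1% lower. The median change was -0.33 over the tested members and 0.03 over all genes, and under normexp the member median turned to 0.23. Each of the 13 had the same sign on all 3 slides, which again follows by itself where the groups do not overlap. The count was 3 with the replicate number as a block and 1 with the slide as a block, against 2.29% and 1.54% of all genes. The same blocks gave 44 and 49 at 24 hpf, against 44.4% and 47.2% of all genes. Without the dim MO replicate 2 it was 21 of 78, 19 lower and 2 higher, among them all 13, and 11.3% of all genes were called. The count fell to 12 without MO replicate 1 and 2 without MO replicate 3, against 6.43% and 0.769% of all genes. It fell to 1, 0 and 1 without MP replicates 1, 2 and 3, against 0.546%, 0.187% and 0.949% of all genes. On leaving out 1 array, 0 of the 13 calls held every time. Among probes well above background in both groups, 11 of 57 members were called, all lower, against 5.31% of all genes.

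**Figure D3:**
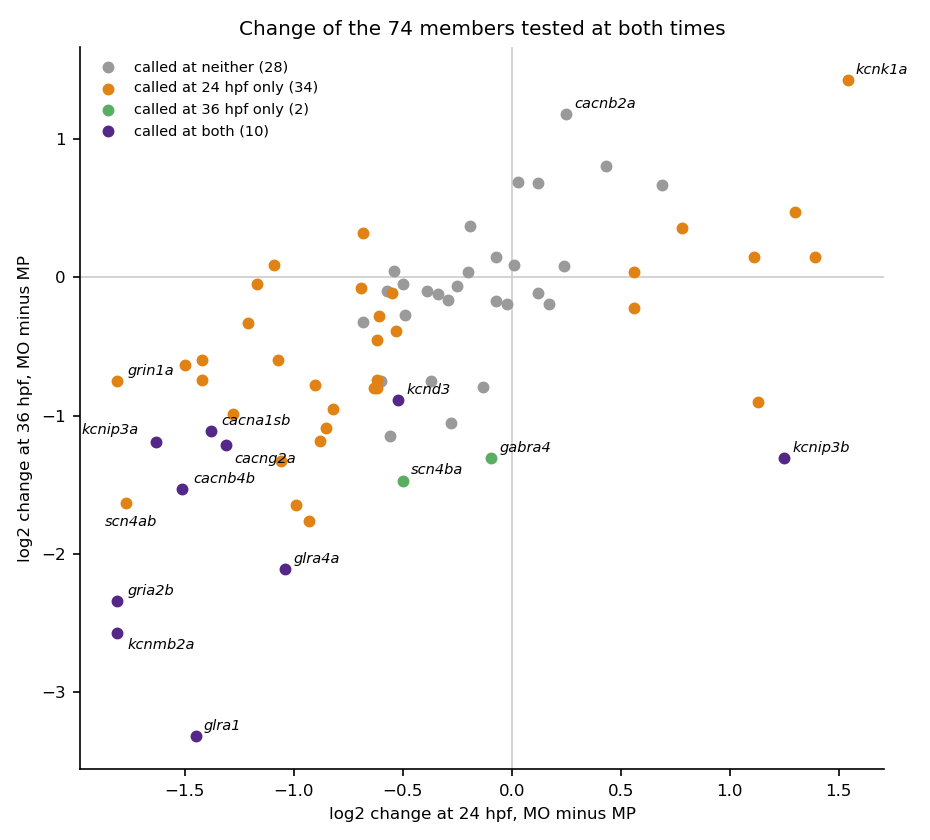
Log2 change, MO minus MP, at 36 hpf against that at 24 hpf for the 74 members tested at both times, coloured by where each was called. Of these, 9 were called lower at both times, 34 were called at 24 hpf only, and gabra4 and scn4ba at 36 hpf only. At the lower right, kcnip3b was the only member called higher at 24 hpf and lower at 36 hpf. chrna4b also lies at the lower right and was called at 24 hpf only. The place of scn4ba rests on the probe drawn, since its other probes changed by -1.40 and -1.25 at 24 hpf.

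Of the 74 members tested at both times, 10 were called at both, 34 at 24 hpf only, 2 at 36 hpf only and 28 at neither. A call at one time and not at the other does not show that the change differed, and the difference itself was tested as the interaction of treatment and time. Of 89 members 2 were called, kcnip3b and htra3a, against 1.55% of all genes, and 16 had an unadjusted p under 0.05. htra3a, a secreted peptidase caught by the symbol rule, was -4.11, -4.19 and -4.67 in MO and -6.69, -7.86 and -7.61 in MP embryos at 24 hpf, a log2 change of 3.06 (adjusted p = 0.00012, SE 0.33). Its values at 36 hpf were -8.26, -7.49 and -7.17 in MO and -7.52, -8.29 and -7.11 in MP embryos, on no array well above background. The interaction was -3.06 (SE 0.60, adjusted p = 0.029), and it stayed past the threshold in 6 of 12 fits that left out 1 array and in 6 of 12 other settings. With both groups near background at 36 hpf, its size is not a measured difference, and its other probe changed by 3.48 at 24 hpf and 1.43 at 36 hpf. Without the dim MO array 14 of 89 members had a called interaction, against 15.6% of all genes.

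Between 24 and 36 hpf most of the called changes of receptor and channel mRNAs in MP embryos were increases. In these changes 36 hpf is set against 24 hpf, so a positive value is a higher level at 36 hpf. In MO embryos 10 of 80 members tested were called, 5 higher and 5 lower at 36 hpf, against 11.8% of all genes, 6.04% higher and 5.73% lower. In MP embryos 32 of 85 were called, 29 higher and 3 lower, against 30.5% of all genes, 14.4% higher and 16.1% lower. Without the dim MO array the count in MO embryos was 36 of 80, 24 higher and 12 lower, against 49.7% of all genes. Under scaling to the positive control spots, which moved the median of all genes to -1.69 in MO and -0.59 in MP embryos, 59 of 80 members were called in MO and 4 of 85 in MP embryos, against 88.3% and 5.78% of all genes. With all arrays and the scaling used here, 26 of the 32 called in MP embryos could be tested in MO embryos, where 6 were called, 5 of them in the same direction.

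**Figure D4:**
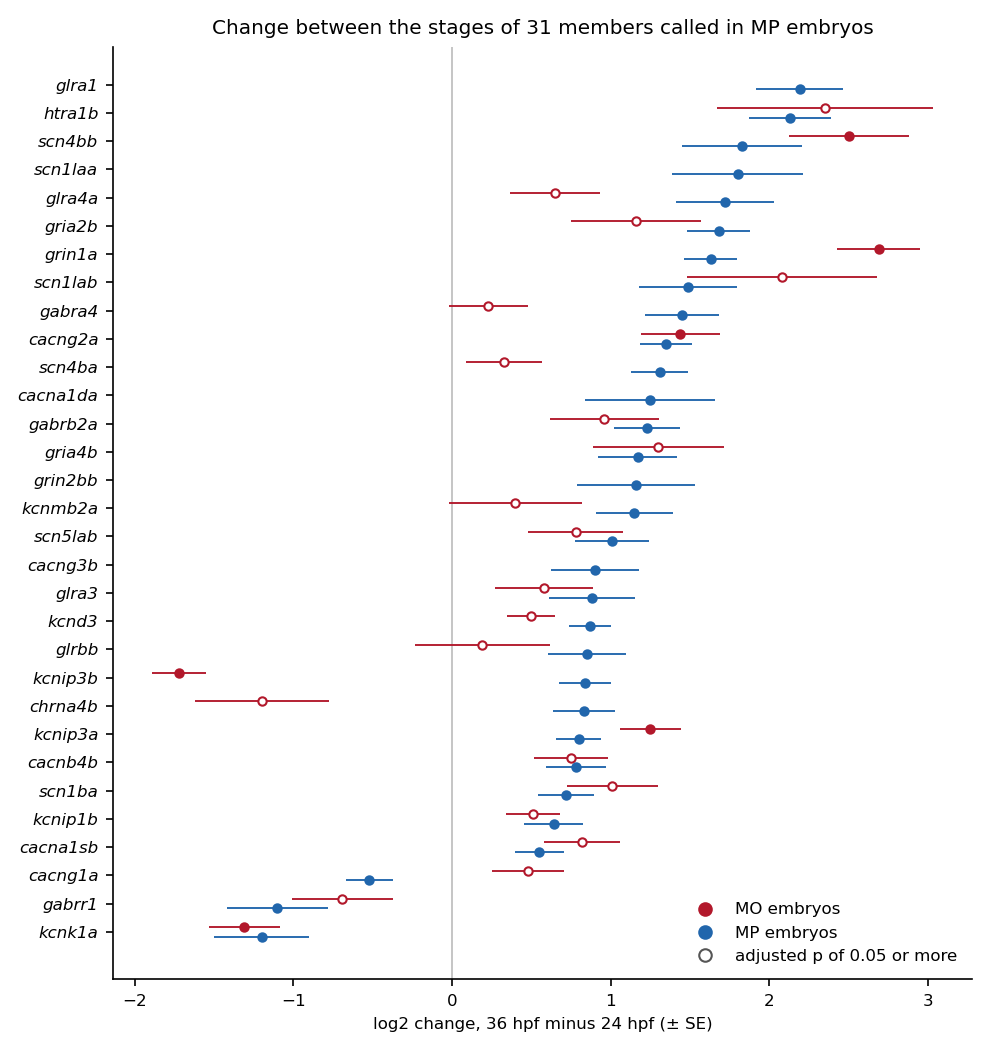
Log2 change, 36 minus 24 hpf, ± SE, of 31 members called in MP embryos (blue), with the change in MO embryos (red) drawn above it where the member was tested there, and open points at an adjusted p of 0.05 or more. In MP embryos 28 of the 31 lie above 0, and kcnip3b has its red point at -1.72 and its blue point at 0.84.

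With all arrays, the 4 glycine receptor genes were called in MP embryos only, which is no test of a difference between the treatments. In MO embryos glra4a changed by 0.65, glra3 by 0.58 and glrbb by 0.19 (adjusted p = 0.165, 0.239 and 0.788), and glra1 was too dim to test. Without the dim MO array glra3 was the only one of the 4 called in MO embryos, with a rise of 0.86 (adjusted p = 0.016 in limma). In MP embryos glra4a rose by 1.72, glra3 by 0.88, glrbb by 0.85 and glra1 by 2.19 on the log2 scale, with adjusted p of at most 0.038. gabra4 changed by 0.23 in MO embryos, which was not called (adjusted p = 0.551), and rose by 1.45 in MP embryos (adjusted p = 0.0028). The difference of treatments for gabra4 was -1.22 (adjusted p = 0.096) with all arrays and -1.30 (adjusted p = 0.023) without the dim one.

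With all arrays, the members called higher at 36 hpf in both treatments were cacng2a, kcnip3a, grin1a and scn4bb. With its other probe, however, scn4bb turned sign in MO embryos and was not called in MP embryos. Without the dim MO array, 24 members were called higher and 12 lower in MO embryos, against 49.7% of all genes. The 24 included gria2b (1.61), scn1ba (1.33), cacna1sb (0.99), cacnb4b (0.79) and kcnd3 (0.49), each also called higher in MP embryos. grin1a rose by 2.69 in MO (adjusted p = 0.0057) and 1.63 in MP embryos (adjusted p = 0.00036), and its interaction was 1.06 (adjusted p = 0.13). cacng2a rose by 1.44 in MO and 1.35 in MP embryos (adjusted p = 0.02 and 0.00076). kcnk1a fell in both, by 1.31 in MO and 1.20 in MP embryos (adjusted p = 0.02 and 0.018). kcnip3b fell by 1.72 in MO embryos (adjusted p = 0.0058) and rose by 0.84 in MP embryos (adjusted p = 0.0066). htr1ab and kcnn1b fell in MO embryos, by 1.44 and 1.46 (adjusted p = 0.028 and 0.02), and their changes in MP embryos were -0.20 and -0.63, not called. Of 10 inward rectifiers tested in MP embryos, none was called between the times (limma, with 0 at an unadjusted p under 0.05).

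**Figure D5:**
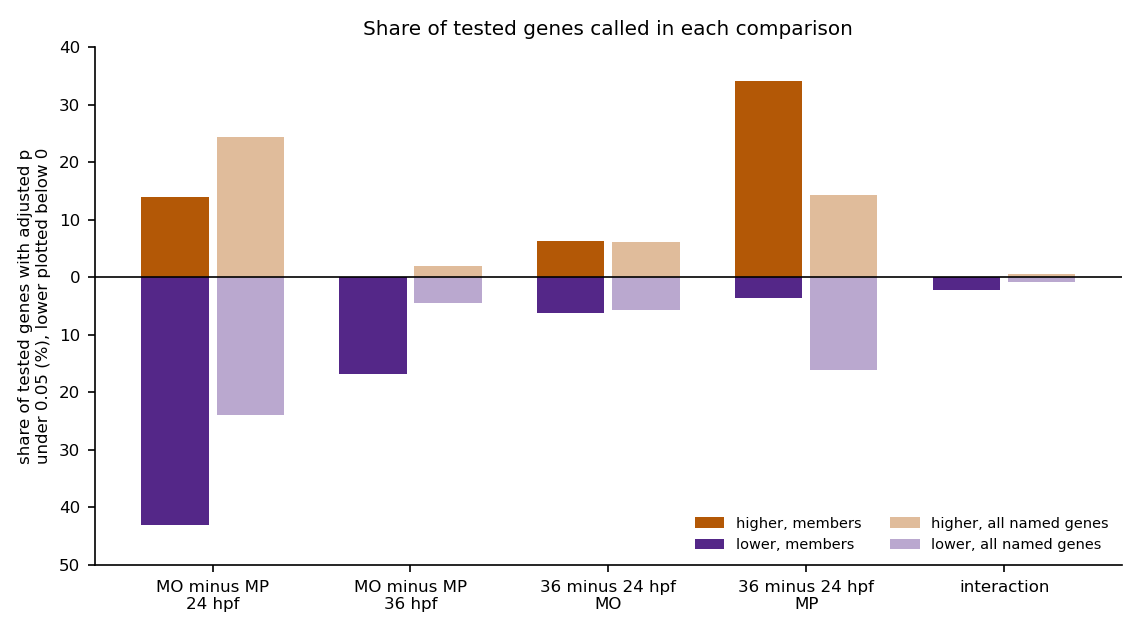
Share of tested genes called higher (above 0) or lower (below 0) in each comparison, for the members (dark) and for all named genes (light). The lower share of members exceeds that of all genes, 24.0% at 24 hpf and 4.45% at 36 hpf, in both comparisons of MO with MP, and in MP embryos the share of members higher at 36 hpf exceeds the 14.4% of all genes.

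Genes that work with these receptors were counted from a list of partners. The counts are read against all genes tested. Of these 48.3% were called at 24 hpf, 24.0% lower and 24.3% higher, and 6.38% at 36 hpf, 4.45% lower and 1.93% higher. Of 8 genes that make, load or clear GABA and glycine, 6 were called at 24 hpf and 4 at 36 hpf, all lower in MO embryos. They included gad1b, which makes GABA, with -2.36 at 24 hpf and -1.68 at 36 hpf, and slc32a1, which loads both transmitters into vesicles, with -1.54 and -1.30. slc6a5, the glycine transporter of glycine neurons, was at -1.63 at 24 hpf. Of 7 glutamate genes, 3 were lower and 1 higher at 24 hpf, among them slc17a6a, which loads glutamate, at -1.58, and glula, which turns glutamate into glutamine, at 0.93. Of 6 genes of the neuromuscular synapse, 4 were lower at 24 hpf and 0 were called at 36 hpf (limma, 4 at an unadjusted p under 0.05), with ache, which breaks down acetylcholine, at -1.55 and slc18a3b, which loads it, at -1.68 at 24 hpf. Of 12 scaffold and trafficking genes tested at 24 hpf, 5 were lower and 3 higher, and of 13 tested at 36 hpf 5 were lower. Among the latter was cnih2, which accompanies AMPA receptors in mammals. It was on no MO array well above background at 36 hpf, so its fitted change of -2.12 is not a measured size. Of 11 genes of muscle excitation and contraction, 9 were lower at 24 hpf and 5 at 36 hpf, such as casq1b, which stores calcium, at -2.56 and -2.26. Of 5 serotonin genes tested, tph2, which makes serotonin, was lower at 24 hpf (-0.86), and none was called at 36 hpf (limma, 2 at an unadjusted p under 0.05).

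Neuron and skeletal muscle markers were mostly lower in MO embryos. Of 11 neuron markers 10 were lower and 1, isl2a, higher at 24 hpf, with a median change of -1.20, and 6 were lower at 36 hpf, with a median of -0.86. Their summed level, in units of the scaling median, was 43.4 to 45.0 in MO and 78.4 to 102.4 in MP embryos at 24 hpf. At 36 hpf it was 54.4 to 100 in MO and 117.5 to 154.5 in MP embryos. Bright probes weigh most in such a sum, here mainly tubb5, with log2 means of 5.08 in MO and 6.14 in MP embryos at 24 hpf. The sum is therefore no measure of the number of neurons. Of 10 skeletal muscle markers 8 were lower and 1 higher at 24 hpf, with a median of -1.47, and 5 were lower and 1 higher at 36 hpf, with a median of -1.65. Their summed level, likewise weighted to bright probes, was 181.2 to 230.4 in MO and 359.9 to 460.2 in MP embryos at 24 hpf. At 36 hpf it was 219.5 to 448.1 in MO and 844.2 to 940.0 in MP embryos. Other tissues differed in direction, read against 48.3% of all genes called at 24 hpf and 6.38% at 36 hpf. At 24 hpf 3 of 5 heart markers were lower and 1 higher, 2 of 6 for radial glia and neural progenitors lower and 1 higher, 4 of 5 for red blood cells lower and 1 higher, 2 of 4 for epidermis higher, and 5 of 6 for lens lower. At 36 hpf 1 heart marker was higher, 1 for radial glia and neural progenitors lower and 5 for lens lower, whereas none was called for red blood cells or epidermis (limma, with 3 and 2 at an unadjusted p under 0.05), whose median changes were 1.36 and 0.83. Every one of the neuron and muscle markers was well above background on at least 1 array of each group. The part that the cell types of these markers had in the changes of the receptor and channel genes was not tested.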

How the data were processed

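Total RNA from each embryo pool was hybridized to 1 of 12 one-color Agilent arrays. The authors deposited scanner intensities from version 10.5.1.1 of Agilent's Feature Extraction software, which subtracts background, with no scaling between arrays. The authors' deposited table of processed intensities, floored and normalized to positive control genes per their methods, served as an alternative. 2 of its columns, for MP replicates 2 and 3 at 24 hpf, match the scanner values of each other.

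Intensities were raised to at least 0.05, spots marked as outliers were left out, repeated spots were averaged as log2 values, and every value was set against the array's median across 19114 probes above 50 on all arrays. Probes were named through their accession in RefSeq. Of 43603 probes 16770 matched, 15771 of them to 10914 named genes and the rest to loci without a name. Groups were compared with limma 3.58.1 in R 4.3.3 (lmFit, then eBayes with an intensity trend). P-values were adjusted across all named genes tested by the Benjamini-Hochberg method, with a threshold of 0.05. The interaction was fitted over all arrays. The fits were tested on simulated data. Other steps used data.table (version 1.17.8), Python 3.11.15, numpy 2.4.6, pandas 2.3.3 and matplotlib 3.10.9.

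The members, the families and the lists of partners and markers were chosen with earlier results of these data known, some list members because the study names them, so their counts are descriptions. Values in every array are given for the called member with the largest rise and the largest fall per family and time with groups apart, for called interactions, for muscle excitation genes and for members the study's networks name, other than grin1b. The values of 1 member are not reported here, and the counts include it except where values of named members are counted. scn1laa, scn1lab and scn5lab were counted as sodium channel pores. Precision is limited by how few arrays each group has and by dim probes. Replicates came from separate breeding events, and the replicate numbers did not pair the arrays.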

Additional observations from a re-analysis of the deposited data

Results flagged for a closer look

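For 2 members a test of the interaction of treatment and time passed the threshold. For kcnip3b, a Kv4 channel auxiliary subunit, the change at 36 hpf minus that at 24 hpf was -2.57, with MO arrays above MP arrays at 24 hpf and below them at 36 hpf. For htra3a, a secreted peptidase, it was -3.06, and its probe was well above background on 3 MO arrays and 1 MP array at 24 hpf and on no array at 36 hpf, so the size is not a measured difference, and the call was lost in 6 of 12 other settings. Time and slide cannot be told apart in these arrays.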

How the results depend on the processing

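The share of all genes called is given in parentheses after a count. At 24 hpf, where 49 members were called (48.3%), a single fit of 12 arrays gave 30 (21.4%) and leaving out 1 array gave 41 (40.8%) to 55 (48.8%). At 36 hpf, where 13 were called (6.38%), scaling to positive control spots gave 34 (13.3%), a single fit 27 (19.0%) and normexp 7 (4.38%). The methods' t-test gave 0, but it called only 0.0202% of all genes, and 30 members had an unadjusted p under 0.05 in limma. Leaving out 1 array gave 0 (0.187%, MP replicate 2) to 21 (11.3%, MO replicate 2). With the replicate number as a block the counts were 44 (44.4%) at 24 hpf and 3 (2.29%) at 36 hpf. They were 29 (30.4%) in MP and 4 (1.76%) in MO embryos over time, and 1 (1.13%) for the interaction. With MP replicates 2 and 3 at 24 hpf exchanged in that block, an alternative chosen after seeing the data, they were 42 (42.9%) at 24 hpf and 1 (1.15%) for the interaction. With the slide as a block they were 49 (47.2%) at 24 hpf, 1 (1.54%) at 36 hpf and 1 (0.298%) for the interaction. The numbers share no pairing in the arrays, with correlations of same-numbered MO and MP arrays of -0.167, -0.0519 and -0.0173 at 24 hpf and 0.152, 0.084 and -0.257 at 36 hpf. Over time in MO embryos, where 10 were called, positive control scaling gave 59, no filter 16, the probe with the smallest change 6, a single fit 28, that fit with the slide as a random block 27, and leaving out 1 array 0 to 36. In MP embryos, where 32 were called, positive control scaling gave 4 and leaving out 1 array 19 to 32. For the interaction, where 2 were called, positive control scaling gave 6, leaving out 1 array 1 to 14, and quantile normalization, normexp, a stricter filter and the mean of probes 1 each. For members given in every array, a change of sign was counted only where the main or the other fit called the member. By that count 1 reversed, gabrb2a at 24 hpf with the probe of smallest change (0.74). Sign changes of members called in neither fit were not counted. At 24 hpf 537 of 586 such values stayed on their side of the threshold, 44 lost the call and 4 gained it. At 36 hpf 438 of 488 did, 36 lost it and 14 gained it. On leaving out 1 array, 39 of 49 calls at 24 hpf and 0 of 13 at 36 hpf held every time, all with the same sign. The cause was not tested. Probes near background, as for glra1 in MO embryos at 36 hpf, limit a change to a bound.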
